A study of Homo sapiens with 2 samples.

Results

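Keratins are the proteins that build the intermediate filaments of epithelial cells, and the keratin family is described here in FaDu, a human line of pharyngeal squamous carcinoma cells. Its members were the probe sets whose platform annotation names exactly 1 gene, with a symbol made of KRT, a number and at most 1 letter, so keratin-associated proteins and keratin pseudogenes stayed out. This rule took 56 of 54675 probe sets, which stand for 44 of 19775 genes. The cells had been stably transduced with the GLUT4 sequence or with the control vector by lentivirus and selected with puromycin, a treatment that both groups share, and the methods speak of stable clones without stating whether a group grew from 1 clone. GLUT4 is a glucose transporter of muscle and fat. Total RNA of each group was put on 1 Affymetrix Human Genome U133 Plus 2.0 array, so there was no replicate, no error between cultures and no test for any value that follows, and a difference covers every way in which these cell populations differed. The study made these arrays to look for genes that change with GLUT4 in a line of low metastatic ability.

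A keratin filament is built from pairs, each of 1 acidic type I and 1 basic type II chain, so epithelial cells make keratins of both types. The pair in use follows the kind of epithelium. Basal cells of stratified epithelium carry KRT5 with KRT14, simple epithelia carry KRT8 with KRT18, cornifying epidermis switches to KRT1 with KRT10, and the mucosa of mouth and oesophagus switches to KRT4 with KRT13. Hair shaft and root sheath use a further large set. Squamous carcinoma lines are known to keep basal keratins and often to carry simple ones as well.

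FaDu cells of both groups had high intensities for the basal pair KRT5 and KRT14 and for the simple keratins other than KRT20. Above the median signal on at least 1 array lay 2 of 5 keratins of cornifying epidermis and 1 of 5 of mucosa and cornea. So did 7 of 19 hair keratins, and 13173 of all 19775 genes. Among these keratins, KRT10 alone read over 1000. With GLUT4, KRT14 was 2.03-fold higher and KRT80 was 2.76-fold lower, each on its single probe set, and KRT33A was 1.55-fold higher. The other 41 keratin genes lay within 1.5-fold, and 39 of the 44 had a log2 difference smaller than 0.3 in size. Intensities are the deposited values on a linear scale. Where a pair of intensities is given, the vector array comes first and the GLUT4 array second. Every difference was taken as GLUT4 minus vector on the log2 scale. A gene with several probe sets is given by the one with the highest mean log2 intensity of both arrays, its main probe set. The threshold of 1.5-fold is that of the study's methods. Probe sets bind with different strength, so the intensities of different genes give no order of their transcripts, and they are set here only against the median of all probe sets, 39.7 and 39.1.

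The sequence around the gene's start was not used to choose the members. RefSeq promoter windows of GRCh38.p14, from 250 bases before to 50 bases after the gene's start, were at hand for 29 of the 44 genes. KRT14 and KRT80 were not among these 29. The letters TATAAA, a common form of the TATA box that positions the start of transcription, stood on the printed strand of 14 of these 29 windows, 48.3%, against 7.71% of the windows of 27305 genes, taking the first window of each gene. Counting both strands, 15 of the 29 windows held them and 3264 of the 27305. Most of the 14 genes with TATAAA on the printed strand are hair follicle keratins. The letters TGAGTCA, a form of the AP-1 motif, searched on both strands, were found in 0 of the 29 windows and in 4.92% of all. The letters GGGCGG, a GC box, also on both strands, were in 6 of the 29, 20.7%, and in 44.6% of all. A match is a description of the sequence and not a site of binding.

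The following windows are shown because they belong to a basal keratin, to the bright cornifying keratin, and to a pair of neighbouring hair keratins of which 1 passed the threshold. All lie on the minus strand of GRCh38.p14 and are written in the direction of transcription, with TATAAA in capitals. KRT5 lies at chr12:52520345-52520644, KRT10 at chr17:40822565-40822864, KRT33A at chr17:41350779-41351078 and KRT33B at chr17:41369764-41370063.
KRT5: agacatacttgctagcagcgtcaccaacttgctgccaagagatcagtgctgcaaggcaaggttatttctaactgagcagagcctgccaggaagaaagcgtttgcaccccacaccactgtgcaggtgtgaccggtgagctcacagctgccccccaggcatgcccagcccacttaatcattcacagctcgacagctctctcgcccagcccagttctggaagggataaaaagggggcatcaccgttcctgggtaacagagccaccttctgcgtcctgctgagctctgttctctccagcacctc
KRT10: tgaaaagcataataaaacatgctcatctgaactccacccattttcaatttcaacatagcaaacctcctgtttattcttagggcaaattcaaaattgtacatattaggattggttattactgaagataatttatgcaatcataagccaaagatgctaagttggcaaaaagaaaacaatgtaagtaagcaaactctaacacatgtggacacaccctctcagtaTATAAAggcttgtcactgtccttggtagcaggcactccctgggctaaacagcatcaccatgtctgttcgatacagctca
KRT33A: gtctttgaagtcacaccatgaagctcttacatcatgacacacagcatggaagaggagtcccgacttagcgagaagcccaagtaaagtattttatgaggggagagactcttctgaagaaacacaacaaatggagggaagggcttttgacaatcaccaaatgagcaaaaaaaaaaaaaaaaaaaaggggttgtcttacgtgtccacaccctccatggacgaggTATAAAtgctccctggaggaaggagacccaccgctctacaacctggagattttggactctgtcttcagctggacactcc
KRT33B: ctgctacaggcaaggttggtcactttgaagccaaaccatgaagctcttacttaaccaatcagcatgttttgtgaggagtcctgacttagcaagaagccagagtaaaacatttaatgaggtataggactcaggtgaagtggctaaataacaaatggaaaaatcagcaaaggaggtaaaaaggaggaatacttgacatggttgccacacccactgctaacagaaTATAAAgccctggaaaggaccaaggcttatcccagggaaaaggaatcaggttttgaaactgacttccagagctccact
TATAAA began 29 bases before the start in KRT10 and KRT33A and 28 bases before it in KRT33B, and the KRT5 window did not hold these letters. The windows of KRT33A and KRT33B were identical at 191 of 338 aligned columns, or 56.5%. This compares with 45.3% for KRT5 and KRT33A and 47.6% for KRT5 and KRT10.

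FaDu is labelled a head and neck squamous line, and it was checked on markers with no keratin among them. The list of 12 held markers of squamous epithelium and epithelial genes not particular to it, such as EPCAM and CDH1. Of the 12, 10 were analysed here. All of these lay above the median signal on at least 1 array, as did 13173 of all 19775 genes. LY6D, the dimmest of them, read 48.6 and 41.3. SFN, an adaptor protein of keratinocytes, read 11921 and 11894. The desmosomal cadherin DSG3 read 516 and 556. SLC2A4, which encodes GLUT4, read 28.3 and 32.6, both below the median, a log2 difference of 0.20. The arrays therefore did not show the introduced gene past 1.5-fold. Whether its probe set lies within the introduced sequence was not tested, and these values do not check how the arrays were labelled.

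**Figure D1:**
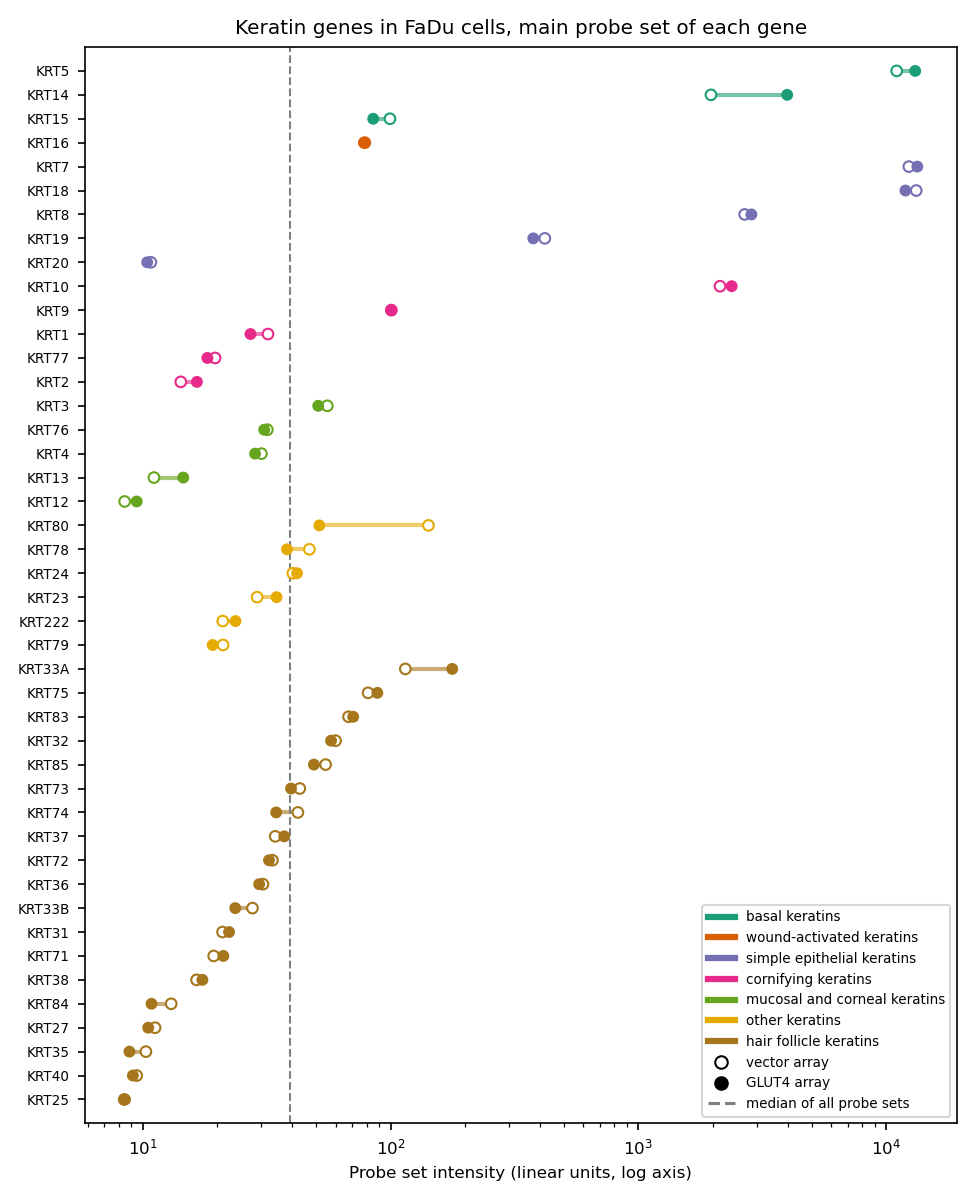
Intensity of the main probe set of each of 44 keratin genes (horizontal log axis, linear units), with open circles for the vector array and filled circles for the GLUT4 array, coloured by role. The dashed line is the median of all probe sets. KRT14 and KRT80 have the widest gaps between their circles, and 6 genes lie above 1000 on both arrays.

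Among basal keratins, KRT14 differed and its partner differed far less. KRT14, the type I chain of basal cells, read 1963 and 3985, a log2 difference of 1.02. KRT5, its type II partner, read 11024 and 13093, a log2 difference of 0.25. KRT15, a further type I chain of basal cells, read 99.5 and 85.1, a log2 difference of -0.22. The KRT14 value was therefore the one of the 3 past 1.5-fold, and the type I chain exceeded its partner by 0.77 in log2 difference. KRT5 and KRT15 moved by about as much as probe sets of 1 gene differ. In 10523 genes that more than 1 probe set measures, the brightest and the next brightest differed from each other with an SD of 0.29 in log2 difference, equal to 0.20 per probe set. This SD holds error between probe sets and none between cultures.

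KRT14 stood at rank 72 from the highest log2 difference among the 13173 genes above the median signal on either array. It has 1 probe set, so no second probe set could be set beside it. Its intensity lies far above the median. Adding 32 to all intensities, a step that shrinks the differences of dim probe sets, left its log2 difference at 1.01.

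KRT80 was lowered most among the keratins. KRT80, a type II keratin of many epithelia that is found at cell margins, read 142 and 51.6, a log2 difference of -1.46. It stood at rank 15 from the lowest among the 13173 genes above the median signal. The value on the GLUT4 array lies close to the median of all probe sets, and with the offset of 32 the log2 difference was -1.06, which is 2.08-fold. KRT80 too has 1 probe set.

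KRT33A, a type I keratin of the hair cortex, read 115 and 177, a log2 difference of 0.63, just past the threshold of 0.58. Its probe set has a name ending in x_at, the maker's mark for probes that can also bind other transcripts, and the hair keratins of this region are close relatives, so the source of the signal is uncertain. KRT33B, its neighbour with a similar protein, read 27.7 and 23.6, a log2 difference of -0.23. With the offset of 32, KRT33A came to 0.51, within 1.5-fold. The keratin nearest to the threshold on the other side was KRT13, at 1.31-fold.

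**Figure D2:**
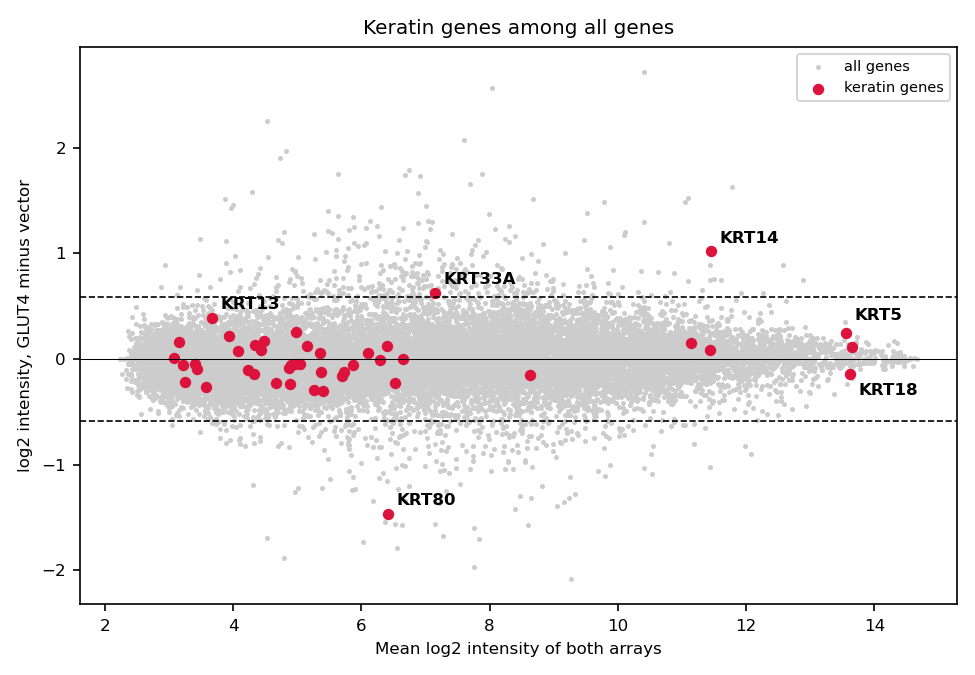
Log2 difference, GLUT4 minus vector (vertical axis), by mean log2 intensity (horizontal axis), with all 19775 genes in grey and the 44 keratin genes in red. Dashed lines mark 1.5-fold. KRT14 and KRT33A lie above the upper line and KRT80 below the lower one.

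Over the family as a whole, few members passed 1.5-fold. Of 44 genes, 2 were more than 1.5-fold higher, or 4.55%, where 1.84% of all genes were, and 1 was more than 1.5-fold lower, or 2.27%, where 1.54% of all genes were. By probe set, 2 of 56 were higher and 1 lower, beside 2.04% and 1.22% of all probe sets. These counts rest on 3 genes. The median log2 difference was -0.04 over the keratin genes and -0.02 over all genes. Of the 44 genes, 20 lay above 0 and 24 below. Among the 21 genes above the median signal on either array, the same 2 were higher and the same 1 lower, where 2.49% and 2.04% of all such genes were. The 23 genes not above the median signal on either array all stayed within 1.5-fold, from -0.26 to 0.39.

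The simple epithelial keratins were bright and within 1.5-fold. KRT8, the type II chain of simple epithelia, read 2684 and 2858, a log2 difference of 0.09. Its type I partner KRT18 read 13217 and 11953, a log2 difference of -0.15. KRT8 and KRT18 have 1 probe set each, with a name ending in x_at as for KRT33A, so other transcripts may add to these signals. KRT7, a type II chain of glandular and ductal epithelia, read 12340 and 13354 on its main probe set, a log2 difference of 0.11. KRT19, a small type I chain, read 419 and 377, a log2 difference of -0.15. KRT20, known from the gut and from Merkel cells, lay below the median at 10.8 and 10.4. None of these 5 genes had a log2 difference larger than that SD of 0.20, and their median was -0.05.

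Of the cornifying keratins, KRT10 was bright and its partner KRT1 was not above the median. KRT10, the type I chain of suprabasal epidermis, read 2135 and 2380, a log2 difference of 0.16. Its 3 probe sets gave differences between 0.16 and 0.24. KRT1, the type II partner, read 32.04 and 27.22, a log2 difference of -0.23. KRT9, the keratin of palm and sole epidermis, read 101 on both arrays, with a log2 difference of 0.00. KRT2 and KRT77 read at most 19.6 on either array. All 5 members lay within 1.5-fold, with a median of 0.00.

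Keratins of mucosa and cornea were near or below the median signal on both arrays, although the line comes from the pharynx. KRT13, the type I mucosal chain, read 11.1 and 14.6, a log2 difference of 0.39. KRT4, its type II partner, read 30.1 and 28.4, a log2 difference of -0.09. KRT76, a palate keratin, read 31.8 and 30.9. The corneal keratins were at 55.6 and 51.1 for KRT3, and at 8.46 and 9.46 for KRT12. None of the 5 passed 1.5-fold, and the median was -0.04.

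KRT16, a type I keratin of wounded and fast-growing epithelium, read 78.7 and 78.1, a log2 difference of -0.01. It was the 1 gene of its group of 5 that was analysed here. The others, KRT6A, KRT6B, KRT6C and KRT17, are missing from this profile.

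Of the hair follicle keratins, 19 of 26 were analysed here. KRT33A was the 1 past 1.5-fold, and none was lower by that much. Over all genes, 1.84% were higher and 1.54% lower. Above the median signal on at least 1 array lay 7 of the 19, beside 13173 of all 19775 genes. KRT75, of the companion layer of the hair follicle, read 81.2 and 88.5. KRT83, a type II hair keratin, read 67.7 and 70.7, and the hair keratins KRT32 and KRT85 read 60.0 and 57.5, and 54.7 and 49.1. The root sheath keratins KRT73 and KRT74 read 43.0 and 39.7, and 42.3 and 34.5. Apart from KRT33A, log2 differences in this group ran from -0.29, in KRT74, to 0.13, in KRT71. The second KRT74 probe set gave 0.12. The median of the group was -0.05.

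Of the remaining keratins, KRT80 was the 1 of 6 past 1.5-fold. Over all genes, 1.54% were lower by that much. KRT78, a type II chain, read 47.1 and 38.2, a log2 difference of -0.30, and its second probe set gave -0.24. KRT24, a type I chain, read 40.3 and 42.0. KRT23, a type I chain, was below the median at 29.0 and 34.7, a log2 difference of 0.26. KRT79 and KRT222 read at most 23.7 on the main probe set.

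Probe sets of the same keratin differed in level and often in sign, at differences that were all within 1.5-fold. Of 9 genes with several probe sets, 21 probe sets in all, none had a probe set past 1.5-fold. In 4 genes all probe sets had the same sign, and in 5 they had both. The widest gap was 0.42, in KRT74, and the narrowest was 0.06, in KRT78. KRT7 shows how much the level depends on the probe set. Its main probe set read 12340 and 13354 while the other 3 read at most 94.4, yet all 4 differences lay between -0.09 and 0.11.

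Of the partner pairs, KRT14 and KRT5 had the widest gap. Of 6 textbook pairs, 4 had both chains analysed here, and KRT6A with KRT16 and KRT6B with KRT17 did not. The log2 difference of the type I chain minus that of the type II chain was 0.77 for KRT14 and KRT5, 0.48 for KRT13 and KRT4, 0.39 for KRT10 and KRT1, and -0.24 for KRT18 and KRT8. In the first of these the type I chain alone was past 1.5-fold. In the other 3 pairs both chains were within it. The gap of KRT18 and KRT8 is smaller than 0.29, the SD between a pair of probe sets of 1 gene. With the offset of 32, the gaps of KRT13 and KRT4 and of KRT10 and KRT1 shrank to 0.15 and 0.27. The SD was taken without the offset, so it is no measure for these shrunken gaps. KRT1, KRT4 and KRT13 did not lie above the median signal, and KRT8 and KRT18 each rest on a probe set ending in x_at. Over all members, the median was 0.01 for 24 type I genes and -0.09 for 20 type II genes. The difference between the types was not tested.

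The keratin genes next to KRT14, KRT80 and KRT33A stayed within 1.5-fold. Keratin genes lie in 1 cluster on chromosome 12, which holds the type II genes and KRT18, and in 1 on chromosome 17 with the other type I genes. KRT14 lies between KRT9 and KRT16 among the genes analysed here, and these had log2 differences of 0.00 and -0.01. KRT80 lies at the edge of the chromosome 12 cluster beside KRT7, which had 0.11. KRT33A lies between KRT40, at -0.05, and KRT33B, at -0.23. The medians of the clusters were -0.10 for 21 genes on chromosome 12 and 0.01 for 23 genes on chromosome 17.

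**Figure D3:**
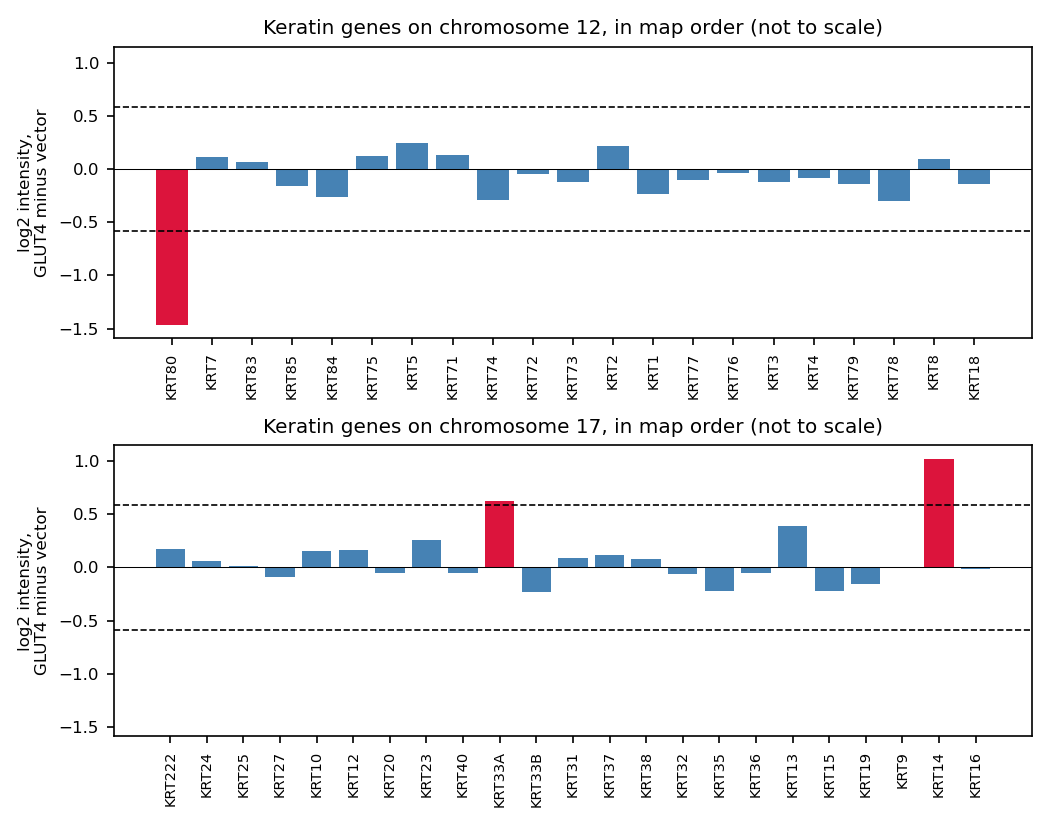
Log2 difference, GLUT4 minus vector (vertical axis), for the keratin genes analysed on chromosome 12 (21 genes) and chromosome 17 (23 genes), in their order on the map and not to scale. Dashed lines mark 1.5-fold, and red bars are past it. The genes next to KRT80, KRT33A and KRT14 stay within the lines.

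Genes that work with keratins were mostly within 1.5-fold. Of 12 linkers that bind keratin filaments or tie them to junctions, all 12 were analysed, none passed 1.5-fold, and the median was -0.03. The desmosomal anchor DSP, desmoplakin, read 3247 and 3618, a log2 difference of 0.16. The largest difference in size was that of periplakin, PPL, at -0.51 (246 to 173). MACF1, a linker of cytoskeletal filaments, read 833 and 727, and FAM83H, which organizes keratin filaments, read 729 and 712.

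Genes of the cornified envelope, the protein shell of late squamous differentiation, had low intensities on both arrays. Of 28 listed, 23 were analysed here, none passed 1.5-fold, and 8 lay above the median signal on at least 1 array. Of all 19775 genes, 13173 lay above it. The bright one was CSTA, the protease inhibitor cystatin A, at 3936 and 4795, a log2 difference of 0.28. The transglutaminase TGM5 read 73.6 and 59.6, and involucrin, IVL, read 20.2 and 17.1. The median was -0.09.

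Of 15 intermediate filament genes that are not keratins, 1 passed 1.5-fold, higher with GLUT4. Over all genes, 1.84% were higher and 1.54% lower by that much. VIM, which encodes vimentin, the filament of mesenchymal cells, read 1222 and 2618, a log2 difference of 1.10. Its second probe set read 8.17 and 7.38. The nuclear lamins LMNA and LMNB1 had log2 differences of 0.07 and 0.12. The median of the list was 0.00.

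Markers of other cells are given beside the KRT14, KRT80 and VIM values because some moved too. All 6 fibroblast markers lay above 0, as did 9452 of all 19775 genes. Of the 6, 2 were more than 1.5-fold higher, where 1.84% of all genes were. DCN, the proteoglycan decorin, read 482 and 1050, and LUM, lumican, read 38.5 and 79.9. The summed intensity of the 6 was 834 and 1459, and most of that rise was DCN. The 4 markers within 1.5-fold had log2 differences from 0.01 to 0.20, none larger than the SD of 0.20 for 1 probe set. COL1A1, a collagen chain, read 224 and 226, and COL3A1, another, read 15.2 and 17.4, below the median on both arrays. None of 5 leukocyte markers passed 1.5-fold. Their summed intensity was 114 and 118, and PTPRC, which marks leukocytes, read 8.30 and 8.14. None of 3 melanocyte markers passed it, with a sum of 78.9 and 74.4. Among the 10 genes of the squamous list, EPCAM, an epithelial adhesion molecule, was more than 1.5-fold lower, at 5361 and 3021. Over all genes, 1.54% were lower by that much. The cadherin CDH1 read 3223 and 2224, a log2 difference of -0.54. EPCAM and CDH1 are not particular to squamous cells. DSC3, a desmosomal cadherin, read 240 and 347, a log2 difference of 0.53. The sum of the 10 was 39777 and 36103, and EPCAM and CDH1 made up most of that fall. The part of these genes, or of the cells they mark, in the keratin values was not tested.

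**Figure D4:**
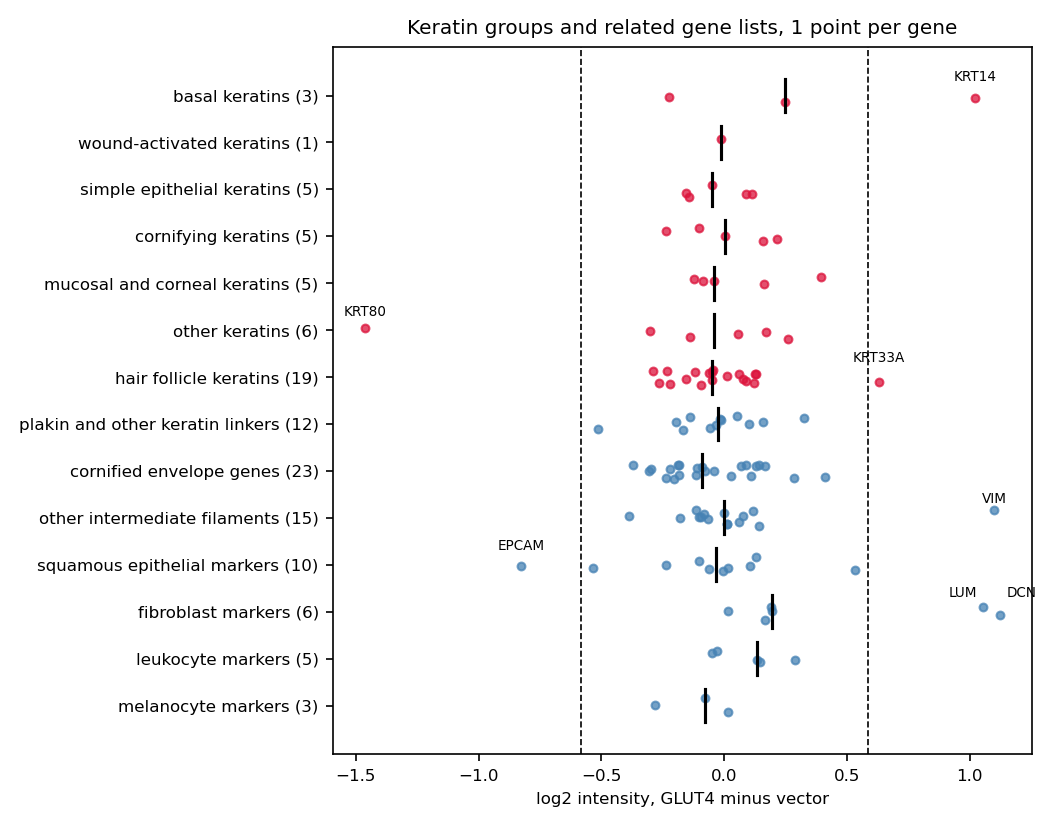
Log2 difference, GLUT4 minus vector (horizontal axis), for the genes of each keratin group (red) and of related lists (blue), 1 point per gene with the number of genes in brackets. Black bars are medians and dashed lines mark 1.5-fold. Most points lie between the dashed lines, and the named genes are past them.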

How the data were processed

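An Affymetrix U133 Plus 2.0 array held the total RNA of vector control FaDu cells and another that of GLUT4 cells. The authors normalized the levels as log2 values with GeneSpring according to the methods, and the submitters' processing notes name MAS5. The order of these steps was not stated. The authors deposited linear intensities with a shared maximum of 25995 and a lowest value of 4.15. Whether MAS5 or GeneSpring normalized them between the arrays was not stated. No detection calls were used. Normalization between arrays can shrink differences shared by most genes.

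Differences were taken on the log2 scale, with a floor of 1 on the intensities. A gene was named from a probe set that names 1 gene in the platform annotation, as 41097 of 54675 probe sets do, and 1 probe set naming a keratin beside another gene was not used. Some genes of the lists are not analysed here. The number of arrays limits the precision, and there is no test. The counting was tested on simulated data. The members and lists were chosen with earlier results of these data known. Named were the keratins past 1.5-fold, those above the median signal, members of partner pairs and, of the other lists, up to 5 members past 1.5-fold and up to 3 bright ones. A few further genes were named after their values were seen, among them KRT2, KRT12, KRT20, KRT23, KRT71, KRT76, KRT77, KRT79, KRT222, KRT33B, KRT40, PPL, IVL, DSG3, DSC3, CDH1, COL3A1, PTPRC and FAM83H. The motifs and promoter windows were also chosen after the data were seen. Tried beside this were scalings (equal array medians, loess with a fraction of 0.3, quantile), an offset of 32, a threshold of 2-fold, probe sets above the median signal alone, leaving out probe sets ending in x_at, s_at or a_at, and the mean over the probe sets of a gene. Windows were aligned globally with Biopython. Python 3.11.15 was used with Biopython 1.88, statsmodels 0.14.6, pandas 2.3.3, numpy 2.4.6 and matplotlib 3.10.9.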

Additional observations from a re-analysis of the deposited data

How the results depend on the processing

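The count of keratin genes more than 1.5-fold higher with GLUT4 fell from 2 to 1, as did the count of probe sets, with the offset of 32, without probe sets ending in x_at, s_at or a_at, and at a threshold of 2-fold. In each case KRT33A left the count and KRT14 stayed. The count lower, 1, stayed under all 8 alternatives by gene, and under the 7 that apply by probe set, and the gene was KRT80. Of 122 log2 differences of the 21 named keratins under other settings, 120 moved by less than 0.20, the SD given for 1 probe set. The others were KRT80 with the offset of 32 (-1.06) and KRT74 averaged over its probe sets (-0.08). Many of the 122 values could not move by that much, so their count is no measure of stability. Averaging leaves a gene with 1 probe set unchanged, and leaving out probe sets by name changes no main probe set that is kept. Equal array medians shift all genes alike. The gap between KRT13 and KRT4 moved to 0.15 with the offset, an alternative added for the pairs after seeing the data. No paired analysis was possible because each group held 1 array. Signal limits the dim keratins, of which 23 lay at or below the median on both arrays.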

Other observations

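The genes of keratin-associated proteins, which embed hair keratins, were looked at after the keratin values had been seen. Of 33 such genes, 12 lay above the median signal on at least 1 array, as did 13173 of all 19775 genes. The median log2 difference of the 33 was 0.00. KRTAP4-6 was the 1 more than 1.5-fold higher with GLUT4, at 44.0 with the vector and 70.1 with GLUT4, and none was lower by that much. The shares over all genes were 1.84% higher and 1.54% lower, so 1 of 33 does not set these genes apart. The vector value of KRTAP4-6 lies close to the median of that array, 39.7. Whether KRTAP4-6 stays past 1.5-fold with the offset was not tested. KRTAP3-1 read 66.1 and 45.3, a log2 difference of -0.55. KRT10-AS1, an antisense transcript of the KRT10 locus, read 725 and 850, a log2 difference of 0.23, beside 0.16 for KRT10.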
